A study of Mus musculus with 5 samples.

Results

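The wild-type colon spheroid is the subject here: a three-dimensional culture of mouse colon epithelium, profiled as bulk RNA in 3 libraries labelled WT (replicates 1, 2 and 3) out of 5 in the series. These were chosen by their labels, without use of any measured value. The other 2 libraries carry the dimerization-deficient alleles Notch1DD and Notch2DD and entered no result given here. The series' title places the work within the study of Notch dimerization and intestinal homeostasis, for which the wild-type cultures are the reference state. The strain background is mixed, C57Bl6 for the most part and FVB for the rest, and the labels give no age, treatment, culture medium or passage number. They also do not say whether the 3 libraries came from separate mice, so the spread reported here is the spread between these libraries and may be partly technical. No condition was compared within the wild-type group, so no test of a difference between conditions was made. A chi-square comparison of the libraries in pairs served only to check that they were not copies.

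The colon is lined by a single-layered epithelium that is renewed from stem cells at the crypt base. The descendants of these cells become absorptive colonocytes, mucus-secreting goblet cells, hormone-secreting enteroendocrine cells or chemosensory tuft cells. In the body the stem cells depend on Wnt, R-spondin and BMP-inhibitor proteins from the underlying mesenchyme. Transcription factors of the CDX and HNF4 families hold the intestinal identity of these cells, and the Hox genes keep a record of their position along the gut.

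Total counts were 19192389, 22907610 and 23064000 in WT replicates 1, 2 and 3. Abundance is given as TPM, a value that is scaled for transcript length and sums to 1000000 in each library, so that genes can be compared with each other. Of 32793 gene rows, 11503 had at least 1 TPM in each library, which is 35.1% of the table, and 7843 (23.9%) had at least 10 TPM in each. A further 17511 rows (53.4%) had 3 counts or fewer in each library. The upper 95% limit of a library with no count for a gene is about 3 counts. At these depths it equals 0.130 to 0.156 CPM (counts scaled to a total of 1000000), and it covers counting error only. The libraries were not copies of each other, since their counts differed by 24.7 to 37.5 times the chi-square value that counting error gives. Spearman correlations of log2(TPM + 1) between pairs of libraries, across 12042 genes that are not independent of each other, ranged from 0.974 to 0.979. Transcripts from the Y chromosome were present in every WT library, and Xist, the RNA that coats the inactive X chromosome, was at 2, 0 and 3 counts. Eif2s3y, a Y-linked translation factor gene, was at 37.9, 38.3 and 28.7 TPM.

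By abundance, accession rows held most of the first 10 ranks, and the leading gene symbols were Sprr2a1, Eef1a1, Gapdh and genes of ribosomal proteins. The 100 most abundant rows held 36.6% ± 1.04 of all TPM (SD, n = 3), or 22.8% in CPM, and the 1000 most abundant held 67.6% ± 0.554. Several of the highest ranks cannot be read as genes. Of the 10 most abundant rows, 7 carry a sequence accession in place of a gene symbol, led by DQ539915 at 39730.2, 36446 and 31062 TPM. Of the 30 most abundant rows, 9 do. All 8224 rows with such names held 14.3% ± 1.70 of TPM. The table has 0 rows with the symbol of a mitochondrially encoded gene, and what these accession rows represent was not tested. Ranks in the following text are therefore given among rows with a gene symbol.

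**Figure D1:**
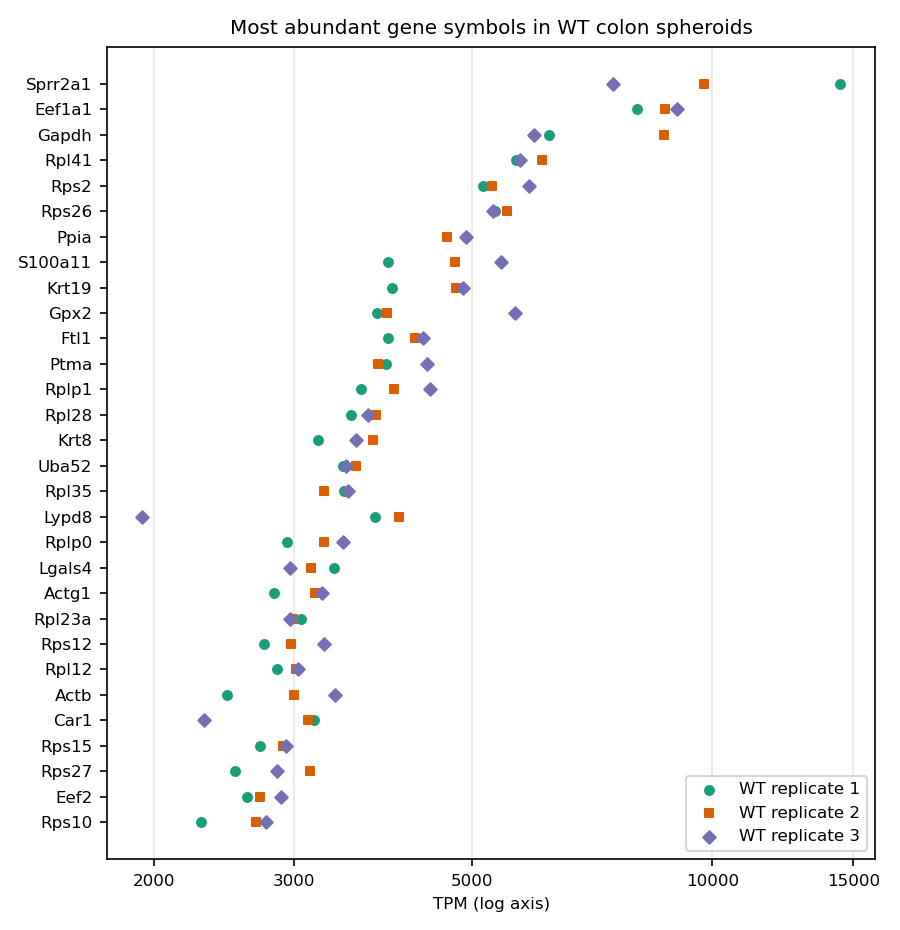
TPM on a log axis of the 30 most abundant gene symbols, with 1 point for each WT library. Sprr2a1 leads at 7502 to 14457 TPM, and the WT replicate 3 point of Lypd8 (1933) lies well below its other points (3787 and 4049).

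The most abundant symbol was Sprr2a1, which encodes a small proline-rich protein of the kind that is cross-linked into the envelope of keratinizing cells. It was at 14457, 9753 and 7502 TPM in WT replicates 1, 2 and 3. With TMM scaling, which adjusts library sizes for composition, its CPM was 2596, 2341 and 1741. WT replicate 1 was highest and WT replicate 3 lowest on either scale, but the ratio of highest to lowest was 1.93 in TPM and 1.49 in CPM. Of the 31-base sequences in its transcripts, 96.9% also occur in another gene, chiefly Sprr2a2, so reads of these genes cannot be assigned with certainty and the level of Sprr2a1 itself is uncertain. Its relative Sprr2a3 was at 662, 586 and 624 TPM, with 73.6% of its sequence shared. Of the 15 small proline-rich genes in the table, 5 had at least 1 TPM in each library (33.3%, near the 35.1% of all rows) and 9 were at 0 counts in all of them, where 44.3% of all rows were.

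Behind it stood Eef1a1, the factor that brings aminoacyl-tRNA to the ribosome, at 8038, 8731 and 9039 TPM, and Gapdh of glycolysis at 6242, 8686 and 5979 TPM. Both have processed copies elsewhere in the genome, with 49.8% and 27.2% of their 31-base sequences shared. Epithelial genes followed closely. Krt19, a keratin of simple epithelia, was at 3975, 4775 and 4878 TPM and held rank 9 among symbols. Krt8, its usual type II partner, was at 3212, 3762 and 3586 TPM, with 32.3% of its sequence shared. Gpx2, the gastrointestinal glutathione peroxidase that reduces hydroperoxides, was at 3802, 3920 and 5668 TPM, with WT replicate 3 above the other libraries. Lgals4, a sugar-binding galectin of the intestinal epithelium, was at 3361, 3146 and 2964 TPM. S100a11, a calcium-binding protein, was at 3933, 4759 and 5445 TPM, although 48.9% of its sequence is shared with other genes.

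Grouped by function, ribosomal protein genes took the largest share of the 18 symbol-defined classes examined. The 88 cytosolic ribosomal protein genes held 14.7% ± 0.541 of TPM (SD, n = 3), and 56 of the 100 most abundant symbols were among them. The 94 nuclear-encoded genes of oxidative phosphorylation held 3.26% ± 0.125, with Cox8a, a subunit of cytochrome c oxidase, as the leading member at 1797, 1877 and 1712 TPM. Translation factors held 2.71% ± 0.159 and the actin, myosin and tubulin cytoskeleton 2.52% ± 0.162. Glycolytic enzymes held 1.70% ± 0.336, and their share was 1.54%, 2.08% and 1.47% in WT replicates 1, 2 and 3. That class was thus highest in WT replicate 2, while the other libraries lay close together. Glutathione, aldehyde and drug metabolism genes held 1.48% ± 0.108, of which Gpx2 was the leading member and Gstp1, a glutathione transferase, followed at 2093, 2138 and 2092 TPM. The 55 keratin genes held 1.01% ± 0.116, and 13 of them reached 1 TPM in each library, where 35.1% of all rows did. The 376 solute carrier genes held 0.977% ± 0.0177 in sum, led by the mitochondrial carriers Slc25a5 and Slc25a3 at means of 1177 and 865 TPM. The 1119 olfactory receptor genes, which serve odour detection in the nose, held 0.00065%. Of them, 1 reached 1 TPM in each library, against 35.1% of all rows.

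The epithelial label of the cultures was then checked against its markers. All 16 pan-epithelial genes were at 10 TPM or more in each library, where 23.9% of all rows were. Their median was 486 TPM and their sum 17211 ± 775 TPM (SD, n = 3). Epcam (chr17:87635979-87651127, GRCm38.p6), an epithelial adhesion molecule, was at 907, 876 and 795 TPM and at rank 143. The 3 libraries were close, with a coefficient of variation (SD divided by the mean) of 6.74%. Cdh1, the E-cadherin of adherens junctions, was at 440, 427 and 470 TPM. The tight junction proteins Cldn3 and Cldn7 were at 676, 767 and 794 TPM and at 676, 781 and 737 TPM. Vil1, which bundles actin in microvilli, was at 310, 275 and 271 TPM, and Cdh17, an intestinal cadherin, was at 251, 262 and 240 TPM.

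Intestinal identity factors were present: all 17 transcription factors on the list chosen for them reached 1 TPM in each library, and 15 reached 10 TPM. Of all rows, 35.1% and 23.9% reached these levels. Cdx1 was at 483, 467 and 469 TPM, with a coefficient of variation of 1.90%. Its relative Cdx2 (chr5:147300900-147307249) was less even, at 216, 158 and 123 TPM (mean 166 ± 46.9, SD, n = 3), with WT replicate 1 highest and WT replicate 3 lowest. Hnf4a, a nuclear receptor of gut and liver epithelium, was at 382, 374 and 344 TPM, and Klf5, a factor of proliferating crypt cells, at 474, 474 and 429 TPM. Isx, an intestine-specific homeobox factor, was at 227, 145 and 148 TPM. Hnf4g was the lowest of the list, at 7.69, 6.77 and 7.57 TPM.

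**Figure D2:**
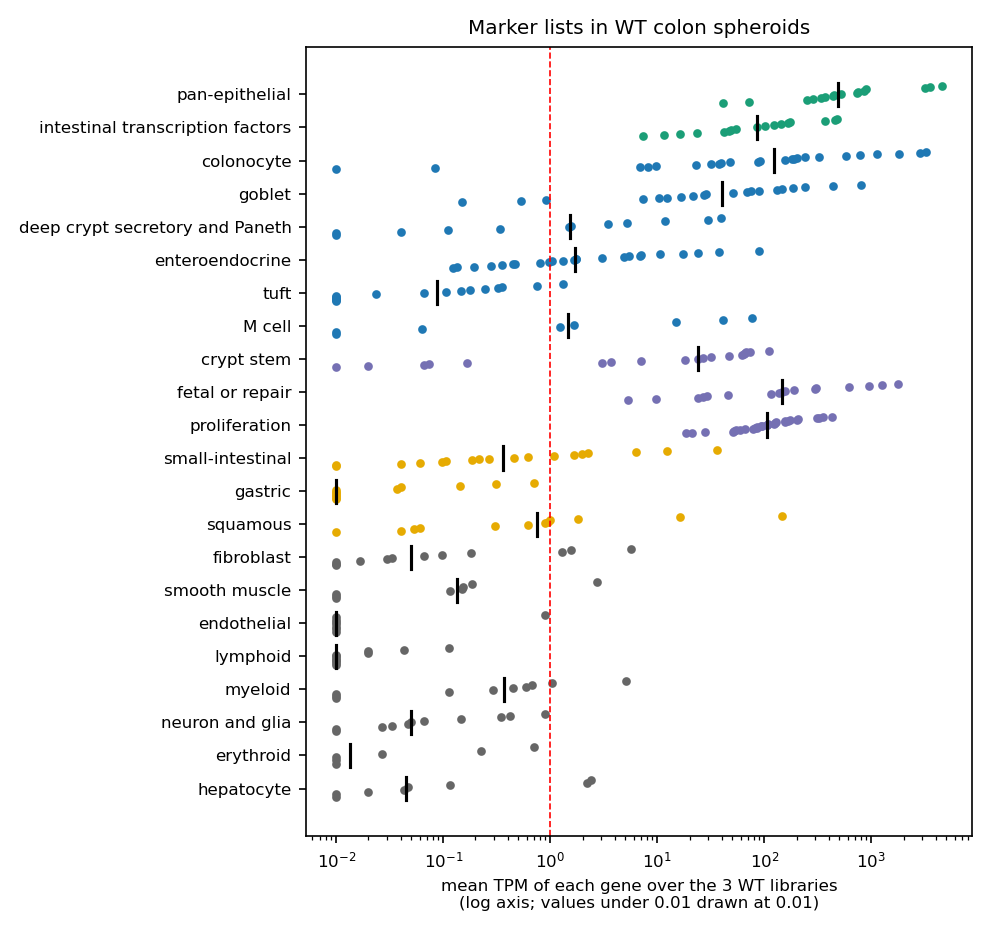
Mean TPM over the 3 WT libraries of each gene of 22 marker lists, on a log axis with values under 0.01 drawn at 0.01; the black bar is the list median and the dashed red line is 1 TPM. The pan-epithelial (median 486 TPM), intestinal transcription factor, colonocyte, goblet, crypt stem, fetal or repair and proliferation lists lie mostly right of the line, and the tuft, small-intestinal, gastric, squamous and non-epithelial lists mostly left of it.

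Position along the gut was read from the Hox genes and from regional markers. Of 39 Hox genes, 13 reached 1 TPM in each library, a share near the 35.1% of all rows, of which 10 were in the A cluster, 2 in the B cluster and 1 in the D cluster. Hoxb13 (chr11:96194316-96196610), at the posterior end of its cluster, was the most abundant at 269, 447 and 362 TPM. Hoxa10 followed at 70.7, 59.4 and 63.0 TPM. The 9 genes of the C cluster did not exceed 1 count in any library, which is under the limit that a count of 0 allows.

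The D cluster separated the libraries. Hoxd13 (chr2:74668225-74671603), at its posterior end, was at 2.86 TPM in WT replicate 1 and at 60.8 and 46.7 TPM in WT replicates 2 and 3, from 78, 2002 and 1511 counts. WT replicate 1 was 21.3-fold below WT replicate 2 in TPM and 21.7-fold in CPM. Of the adjoining genes, Evx2 and Hoxd9, Hoxd10 and Hoxd11 were also lowest in WT replicate 1 and highest in WT replicate 2, while Hoxd12, directly beside Hoxd13, was lowest in WT replicate 3, at 5, 39 and 0 counts. Evx2, a homeobox gene beside Hoxd13, had 4, 101 and 76 counts, Hoxd11 had 19, 252 and 59 counts, and Hoxd9 had 2, 57 and 26 counts. Beyond the cluster, Lnpk was at 5.89, 6.01 and 6.64 TPM and Atp5g3 at 763, 786 and 714 TPM, so these neighbours did not share the difference. Hoxa13 went the other way, at 51.2, 37.2 and 34.4 TPM. The labels do not say which stretch of the colon each culture came from, and its part in this pattern was not tested.

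**Figure D3:**
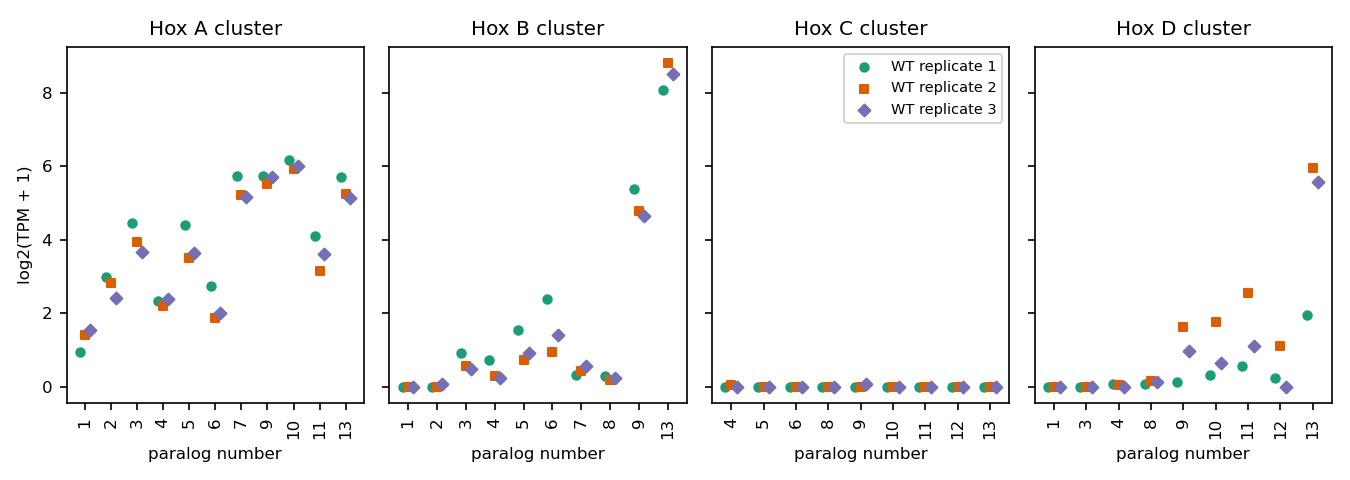
log2(TPM + 1) of the 39 Hox genes by cluster and paralog number, with 1 point for each WT library. Hoxb13 is highest in every library, the C cluster lies at 0, and in the D cluster WT replicate 1 lies below the other libraries at paralogs 9 to 13 except paralog 12, where WT replicate 3 is at 0.

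Markers of other parts of the digestive tract were mostly under 1 TPM. Of 18 small-intestinal genes, 4 reached 1 TPM in each library (22.2%, against 35.1% of all rows). Another 4 had 3 counts or fewer in each (22.2%, against 53.4% of all rows), so that most lay between these limits. Fabp1 and Apoa4, a fatty acid carrier and an apolipoprotein of small-intestinal absorption, were at 0 counts in all 3. Gata4, a transcription factor of the proximal small intestine, had 1, 4 and 2 counts. The small-intestinal genes that were detected included Slc5a1, the sodium-glucose cotransporter, at 39.9, 36.2 and 32.9 TPM, and Fabp2 at 26.7, 5.92 and 4.27 TPM. None of 12 gastric genes reached 1 TPM in each library, 10 had 3 counts or fewer (83.3%, against 53.4% of all rows), and Sox2, Gkn1, Muc5ac and Atp4b were at 0 counts.

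Of 12 squamous genes, 3 reached 1 TPM in each library (25%, against 35.1% of all rows). Another 3 had 3 counts or fewer in each (25%, against 53.4% of all rows). Krt4 (chr15:101918535-101924735), a keratin of stratified epithelia that also stands on the fetal or repair list, was at 72.4, 140 and 230 TPM (mean 147 ± 78.9, SD, n = 3) and at rank 1000. The libraries differed 3.17-fold, with WT replicate 1 lowest and WT replicate 3 highest. Krt14 was at 8.75, 14.7 and 25.4 TPM in the same order, with 28.2% of its sequence shared with other keratins. The factor that defines squamous basal cells, Trp63, had 0, 1 and 5 counts, Krt5 had 2, 15 and 9 counts, and Sprr3 had 0. Krt4 was thus abundant while Trp63, Krt5 and Sprr3 had at most 5, 15 and 0 counts.

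Colonocyte genes were the most abundant of the differentiated lineages. Of 24 listed genes, 21 reached 1 TPM in each library (87.5%, against 35.1% of all rows). The list summed to 12096 ± 1858 TPM (SD, n = 3). Lypd8, a secreted protein that keeps flagellated bacteria away from the colon surface, was at 3787, 4049 and 1933 TPM. Car1, a cytosolic carbonic anhydrase of the large intestine, was at 3172, 3116 and 2311 TPM, and its relative Car2 was at 1643, 1728 and 2037 TPM. Ceacam1, a cell adhesion molecule, was at 1175, 1033 and 1158 TPM, with 37.5% of its sequence shared with its relatives. By contrast, Scnn1b and Scnn1g, subunits of the epithelial sodium channel of distal colon, had at most 3 counts and 0 counts, although their partner Scnn1a was at 38.5, 54.7 and 50.1 TPM. In bulk RNA, fewer cells of a type and less RNA per cell cannot be told apart.

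The colonocyte list also held the widest spread between libraries of the epithelial lineages with many detected members. Its 22 members with a mean of at least 1 TPM had a median range, highest minus lowest library, of 1.05 in log2(TPM + 1), against 0.28 over all 12042 such genes. Of these 22, 15 were lowest in WT replicate 3 and 16 were highest in WT replicate 1, where 29.8% and 32.7% of all such genes were. With TMM-scaled CPM the numbers were 15, against 35.2% of all such genes, and 13, against 32.3%. Like the other marker lists, this one was chosen with earlier results of these data known. The shares of all genes are thus given for scale and lend its counts no support. Slc26a3, the chloride-bicarbonate exchanger of surface colonocytes, was at 71.3, 35.4 and 12.3 TPM. Aqp8, a water channel, was at 58, 47.1 and 8.09 TPM, and Krt20, a keratin of differentiated surface cells, at 32.5, 31.9 and 4.64 TPM. These 3 transport and surface genes were each several-fold lower in WT replicate 3 than in WT replicate 1. Guca2a, which encodes the peptide guanylin, was at 339, 174 and 87.1 TPM, and Cyp2c55, a cytochrome P450 enzyme, at 303, 206 and 57.4 TPM. WT replicate 3 was lowest for each of these 5 genes, and WT replicate 1 was highest in TPM. For Krt20 that order turned in TMM-scaled CPM, at 35.2 in WT replicate 1 and 35.4 in WT replicate 2.

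To show what lies upstream of genes that were lowest in WT replicate 3, the 250 bases before the transcription start are given for the 4 colonocyte genes with the widest range among those at 10 TPM or more that have a single RefSeq promoter entry (GRCm38.p6). Capitals mark 3 motifs searched on both strands: the TATA box as TATAAA, a CDX-type site as TTTATTG or TTTATGG, and an HNF4-type site as CAAAGNNCA. None of the 3 motifs contains another.
Aqp8, chr7:123462044-123462293, plus strand: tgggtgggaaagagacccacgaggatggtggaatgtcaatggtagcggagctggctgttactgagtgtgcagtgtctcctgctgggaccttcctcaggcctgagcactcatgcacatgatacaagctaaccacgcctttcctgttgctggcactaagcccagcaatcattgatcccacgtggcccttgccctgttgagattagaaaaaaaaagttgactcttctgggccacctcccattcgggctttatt
Krt20, chr11:99438154-99438403, minus strand: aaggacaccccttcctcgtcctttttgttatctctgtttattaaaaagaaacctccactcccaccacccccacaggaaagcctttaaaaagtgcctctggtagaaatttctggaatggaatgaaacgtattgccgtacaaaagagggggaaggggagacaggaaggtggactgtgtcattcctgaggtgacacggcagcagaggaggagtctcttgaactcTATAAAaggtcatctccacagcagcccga
Slc26a3, chr12:31437969-31438218, plus strand: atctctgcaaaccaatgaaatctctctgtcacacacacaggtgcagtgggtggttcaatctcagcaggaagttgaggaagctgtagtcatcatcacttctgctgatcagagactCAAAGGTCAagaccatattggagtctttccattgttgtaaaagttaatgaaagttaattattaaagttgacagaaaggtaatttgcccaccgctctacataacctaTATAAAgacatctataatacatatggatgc
Cyp2c55, chr19:39006769-39007018, plus strand: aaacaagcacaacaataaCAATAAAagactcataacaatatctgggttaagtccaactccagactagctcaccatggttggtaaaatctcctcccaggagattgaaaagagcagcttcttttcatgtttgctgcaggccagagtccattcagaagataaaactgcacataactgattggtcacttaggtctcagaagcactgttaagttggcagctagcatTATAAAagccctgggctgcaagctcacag
A TATA box begins 29 bases before the start in Krt20 and Cyp2c55 and 30 bases before it in Slc26a3. The window of Slc26a3 also holds an HNF4-type match and that of Cyp2c55 a CDX-type match, while none of the 3 motifs is in the Aqp8 window. Over 32851 promoter windows of the same length, 12.4% hold the TATA box, 6.51% the CDX-type and 5.49% the HNF4-type motif. Of the 17 colonocyte members at 1 TPM or more that have an entry, 3, 3 and 5 hold them in at least 1 of their windows. These are counts of genes, which can have several windows, and the shares are of single windows, so they are not like for like. A match describes letters and not a bound site.

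Goblet cell genes were also well represented, with 17 of 20 at 1 TPM or more in each library (85%, against 35.1% of all rows). The list summed to 2349 ± 284 TPM (SD, n = 3). Tff3, a trefoil peptide that is secreted with mucus, was at 678, 924 and 792 TPM, and Agr2, a disulfide isomerase needed to fold mucins, at 471, 456 and 382 TPM. Muc2, the gel-forming mucin of the colon, was far less even, at 148, 35.7 and 22.5 TPM. WT replicate 1 was 6.56-fold above WT replicate 3 in TPM and 5.85-fold in CPM, and WT replicate 2 lay between them. The transcription factors of the lineage were low but present, with Spdef at 19.5, 16.3 and 13.9 TPM and Atoh1 at 11.2, 13.8 and 6.17 TPM. Retnlb, a resistin-like protein that goblet cells release, had 1, 2 and 0 counts. Of the 17 genes with a mean of at least 1 TPM, 14 were lowest in WT replicate 3 (29.8% of all genes were). With TMM-scaled CPM the count was also 14, against 35.2% of all genes.

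Enteroendocrine transcripts were present at lower levels. The list summed to 217 ± 47.5 TPM (SD, n = 3). In it, 12 of 24 genes reached 1 TPM in each library (50%, against 35.1% of all rows). The hormones of the distal gut led it: Pyy (peptide YY) was at 95.9, 96.3 and 73.8 TPM and Insl5 (insulin-like peptide 5) at 53.3, 34.1 and 26.3 TPM. Gcg, the proglucagon gene, was at 44.4 TPM in WT replicate 1 and at 13.3 and 14.2 TPM in the others. Neurog3, the factor that starts the lineage, was at 7.85, 8.35 and 5.06 TPM, and Chga, the granule protein chromogranin A, at 13.9, 8.12 and 9.62 TPM. Nts, the neurotensin gene, had at most 3 counts in any library.

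Tuft genes were low. None of the 16 tuft genes reached 1 TPM in each library, their sum was 3.52 ± 1.16 TPM (SD, n = 3), and 9 had 3 counts or fewer in each library (56.2%, near the 53.4% of all rows). Pou2f3, the factor that specifies tuft cells, had 1, 1 and 0 counts, Trpm5 had 5, 3 and 4 counts and Dclk1 had 12, 3 and 9 counts. Gfi1b, Il25, Gnat3, Sucnr1, Chat and Rgs13 had 0 counts in all 3 libraries. The highest member, Ptgs1 (cyclooxygenase 1), was at 3.17 TPM in WT replicate 3 and under 0.5 TPM in the others, and it is not restricted to tuft cells. Of 8 M cell genes, 4 reached 1 TPM in each library (50%, against 35.1% of all rows). Gp2 and Sox8 had 0 counts and Spib had 0, 7 and 0, while Marcksl1 and Tnfrsf11a, which other epithelial cells also use, reached 58.5 to 106 TPM and 36.2 to 44.8 TPM. The other 2 detected M cell genes were the chemokine genes Ccl20, at 7, 20.2 and 18.04 TPM, and Ccl9, at 2.05, 1.28 and 1.71 TPM. Among 12 deep crypt secretory and Paneth genes, 5 reached 1 TPM in each library (41.7%, near the 35.1% of all rows). Reg4, a secreted lectin, was at 41.6, 24.9 and 51.9 TPM, and Mptx1, a mucosal pentraxin, at 31.9, 34.8 and 22.1 TPM. Mmp7, a matrix metalloproteinase, was at 6.70, 3.93 and 24.8 TPM, Kit and Itln1 were the other detected members, and the defensin rows Defa17 and Defa24 had at most 1 count.

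Genes of the cell cycle were present throughout. All 30 proliferation genes were above 10 TPM in each library, where 23.9% of all rows were at 10 TPM or more. Pcna, the replication clamp, was at 307, 301 and 332 TPM and Mki67, a marker of cycling cells, at 130, 89.0 and 97.5 TPM. Ccnd1 (chr7:144929931-144939831), cyclin D1 of the G1 phase, was at 271, 248 and 448 TPM (mean 322 ± 110, SD, n = 3), with WT replicate 3 above the other libraries. Of the 30 genes, 25 were highest in WT replicate 3, where 42.5% of all genes were, and 21 were lowest in WT replicate 2 (37.6% of all genes). With TMM-scaled CPM these were 23, against 36.2% of all genes, and 19, against 30.7%. The differences were small, since the median deviation from a gene's mean was 0.14 in WT replicate 3 and -0.10 in WT replicate 2 on the log2(TPM + 1) scale.

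Stem cell markers were uneven in level. Of 19 crypt stem genes, 14 reached 1 TPM in each library (73.7%, against 35.1% of all rows). Prom1 was the highest at 123, 95.5 and 115 TPM, and Lrig1, an inhibitor of EGF receptors, was at 76.3, 71.2 and 72.1 TPM. Cd44 (chr2:102811141-102901669), a hyaluronan receptor and Wnt target, was at 44.3, 49.9 and 101 TPM (mean 65.2 ± 31.5, SD, n = 3), with WT replicate 3 2.29-fold above WT replicate 1. Axin2, a Wnt feedback inhibitor, was at 23.9, 25.2 and 31.2 TPM, and Ascl2, a stem cell factor, at 18.4, 20.0 and 33.6 TPM. Lgr5, the R-spondin receptor that marks crypt base stem cells, was much lower, at 3.37, 2.57 and 3.17 TPM from 181, 167 and 202 counts. Olfm4 had 0 counts, and Nkd1, Notum and Tnfrsf19 had 1 to 5 counts in each library.

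Genes linked to fetal gut or to repair were high. All 17 reached 1 TPM in each library, where 35.1% of all rows did. Their sum was 6054 ± 1359 TPM (SD, n = 3). S100a6, a calcium-binding protein, was at 1711, 1728 and 1858 TPM. Ly6a, the surface protein Sca-1, was at 986, 1167 and 1584 TPM, although 31.9% of its sequence occurs in related Ly6 genes. Krt7, a keratin of ductal epithelia, was at 678, 905 and 1258 TPM, and Clu, the chaperone clusterin, at 534, 262 and 1047 TPM. Of the 17 genes, 14 were highest in WT replicate 3 (42.5% of all genes were) and 12 lowest in WT replicate 1 (32.1% of all genes), with the same counts in TMM-scaled CPM (36.2% and 33.8% of all genes). The median deviation from a gene's mean was -0.33, -0.07 and 0.46 in WT replicates 1, 2 and 3. Colonocyte genes had 0.39, 0.14 and -0.62, so these groups ran in opposite order over the 3 libraries. With 3 libraries, no correlation between the groups can be tested.

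Genes that low oxygen induces were gathered in a list of 22 after the values were seen, so their counts only describe these members. All 22 reached 1 TPM in each library (35.1% of all rows did), 19 were highest in WT replicate 2 and 20 lowest in WT replicate 3. With TMM-scaled CPM the numbers were 20 and 21. Over all genes at 1 TPM or more, 24.6% were highest in WT replicate 2 in TPM and 31.5% in TMM-scaled CPM. Lowest in WT replicate 3 were 29.8% in TPM and 35.2% in TMM-scaled CPM. Since the list was chosen with its values known, this background lends its counts no support. Bnip3, a mitophagy protein, was at 50.2, 115 and 27.1 TPM, and Egln3, a prolyl hydroxylase, at 102, 214 and 86.5 TPM. Car9, a cell-surface carbonic anhydrase, was at 120, 188 and 73.4 TPM. Each of these 3 genes was highest in WT replicate 2, more than 1.5-fold above either of the others. No value in the files records oxygen or culture density, so their part in this order was not tested.

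**Figure D4:**
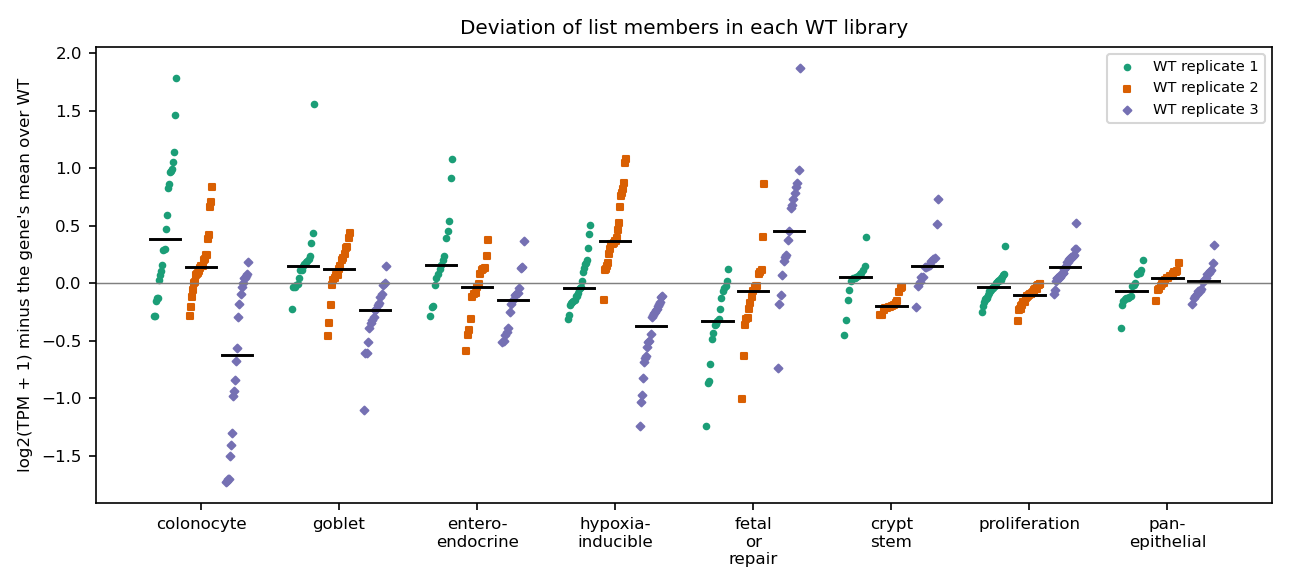
Deviation of each list member (mean of at least 1 TPM) from its own mean over WT, in log2(TPM + 1), for each WT library; black bars are medians. Colonocyte members lie lowest in WT replicate 3 (median -0.62) and fetal or repair members highest there (median 0.46), while pan-epithelial members stay near 0.

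Ligands of the stem cell niche were mostly under 1 TPM and their receptors mostly above it. Of 23 Wnt, R-spondin and BMP-pathway ligands and inhibitors, 2 reached 1 TPM in each library (8.70%, against 35.1% of all rows). Another 15 had 3 counts or fewer in each (65.2%, against 53.4% of all rows). Rspo1, Rspo2, Rspo3, Rspo4, Wnt3a and Grem1 had 0 counts in all 3, and Wnt3, a Wnt ligand of Paneth cells, had 6, 8 and 4. The 2 that were detected were Bmp2, at 14.7, 26.5 and 11.2 TPM, and Wnt7b, at 1.48, 3.50 and 12.8 TPM. Of 21 receptor genes, 14 reached 1 TPM in each library (66.7%, against 35.1% of all rows). The receptor list summed to 325 ± 15.7 TPM (SD, n = 3). The Wnt co-receptor Lrp5 was at 73.0, 84.1 and 87.8 TPM, the R-spondin receptor Lgr4 at 62.1, 58.3 and 75.5 TPM, and the frizzled receptor Fzd5 at 45.8, 38.6 and 42.4 TPM. Bmpr1a, a BMP receptor, was at 31.7, 32.7 and 32.2 TPM. Of the detected ligands, Wnt7b was lowest in WT replicate 1 and 8.64-fold higher in WT replicate 3.

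Of 25 mucosal defence genes, 18 reached 1 TPM in each library (72%, against 35.1% of all rows). At 10 TPM there were 7 of the 25, where 23.9% of all rows were. Those with 3 counts or fewer numbered 3 (12%, against 53.4%), and the list median was 9.88 TPM. Wfdc2, a protease inhibitor, was at 874, 1136 and 939 TPM, and Pigr, which carries immunoglobulin A across the epithelium, at 706, 577 and 315 TPM. Nox1, the colon's NADPH oxidase, was at 106, 94.8 and 72.3 TPM, and its organizer Noxo1 at 117, 117 and 106 TPM. Among genes that epithelium makes upon microbial or cytokine stimulation, Reg3g, Lcn2 and Saa2 had at most 1, 3 and 0 counts, whereas Saa1, a serum amyloid A gene, was at 41.1, 37.7 and 7.19 TPM, with 46.8% of its sequence shared, chiefly with Saa2. Nos2, the inducible nitric oxide synthase, was at 2.57, 10.4 and 4.10 TPM. Cxcl5, a neutrophil-attracting chemokine, was at 8.14, 14.0 and 59.3 TPM, with WT replicate 3 above the others.

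Cell types that do not belong to the epithelium left few transcripts. Of 74 markers on 8 lists, 6 reached 1 TPM in each library (8.11%, against 35.1% of all rows), and 50 had 3 counts or fewer (67.6%, against 53.4%). With 0 counts there were 25 (33.8%), a smaller share than the 44.3% of all rows. The sum over all 74 was 27.2, 26.2 and 35.03 TPM in the 3 libraries, and the pan-epithelial sum was 497 to 682 times as large. Lymphoid markers were the scarcest: all 11 had 3 counts or fewer, and Ptprc, the pan-leukocyte CD45 gene, had 1, 2 and 1 counts. Of the endothelial markers, Pecam1 had 0, 0 and 1 counts, and Vwf, the highest, was at 0.63, 0.96 and 1.11 TPM. Of the fibroblast markers, Pdgfra, Lum and Thy1 had 0 counts and Col1a1 had 5, 10 and 1, while Fn1, the fibronectin gene, was at 5.90, 2.11 and 9.09 TPM. Vim, an intermediate filament of mesenchymal cells, was at 1.90, 1.32 and 0.60 TPM. The myeloid list was led by Cd68, a lysosomal protein, at 4.03, 5.38 and 5.88 TPM, while Tyrobp and Cx3cr1 had 0 counts. The glial factor Sox10 had 0 counts. The 6 genes above 1 TPM were Fn1, Pdgfrb, Tagln, Cd68, Apoa2 and Ttr, with means from 1.57 to 5.70 TPM, and Vim and S100a8 had means over 1 TPM without reaching it in each library.

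The spread among the 3 libraries was summarised last. The biological coefficient of variation, which is the variation left after counting error, was 18.4% over 12523 genes (edgeR common dispersion). The DESeq2 gene-wise median was 9.26%, and on simulated data with 200 highly variable genes the edgeR value came out at 25.73% where 20% was simulated. The edgeR value was 16.03% without WT replicate 3 and 20.5% without WT replicate 2. Of 8306 rows with a mean of at least 10 TPM, 265 (3.19%) had a range over 1 in log2(TPM + 1), which is 2-fold. The number was 101 when WT replicate 3 was left out and the mean recomputed, against 149 without WT replicate 1 and 184 without WT replicate 2. Of the 265, 55 had accession-like or predicted-gene names. Of the other 210, 115 were lowest in WT replicate 3, 65 in WT replicate 1 and 28 in WT replicate 2, where 29.8%, 32.1% and 37.6% of all genes at 1 TPM or more were lowest. The highest library was WT replicate 1 for 85 of them, WT replicate 2 for 60 and WT replicate 3 for 65. Of all genes at 1 TPM or more, 32.7%, 24.6% and 42.5% were highest in WT replicates 1, 2 and 3. Over the 8306 rows with a mean of at least 10 TPM, the median coefficient of variation was 9.35%. The median of what counting error alone would give these rows was 2.90%.

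St3gal4, a sialyltransferase that adds sialic acid to the ends of glycans, had the widest range among ordinary gene symbols after the pseudogene Rpl14-ps1, and none of its 31-base sequences occurs in another gene. It was at 1.38, 150 and 47.3 TPM, from 30, 3944 and 1227 counts, so that WT replicate 2 was 108-fold above WT replicate 1. The gene lies at chr9:35046576-35116864. Its neighbours differed far less between libraries. Dcps was at 43.7, 49.1 and 56.9 TPM, and Foxred1, which had the same order of libraries as St3gal4, was at 16.4, 20.3 and 17.8 TPM. Tgm1, a transglutaminase that cross-links envelope proteins in keratinizing cells, was at 1.48, 9.38 and 27.0 TPM, lowest in WT replicate 1. Hspb1, a small heat shock protein, followed the same order at 3.95, 12.4 and 32.8 TPM, although 52.3% of the Hspb1 sequence is shared with a pseudogene.

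Several of the widest ranges rested on uncertain values. Rpl14-ps1, a ribosomal protein pseudogene, was at 573 and 779 TPM in WT replicates 1 and 3 and had 31 counts in WT replicate 2, and 85.4% of its sequence also occurs in other genes, chiefly Rpl14. Tuba1a, an alpha-tubulin, was at 155, 17.8 and 46.4 TPM with 77.0% of its sequence shared. Snora17, a small nucleolar RNA, reached 55.9 TPM in WT replicate 3 from 1 count, and Snora43 reached 30.3 TPM in WT replicate 2 from 1 count. Snord17 and Snora73b had at most 16 and 9 counts. For Hyi, a hydroxypyruvate isomerase, the ratio of highest to lowest library was 17.9 in TPM but 6.43 in CPM.

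**Figure D5:**
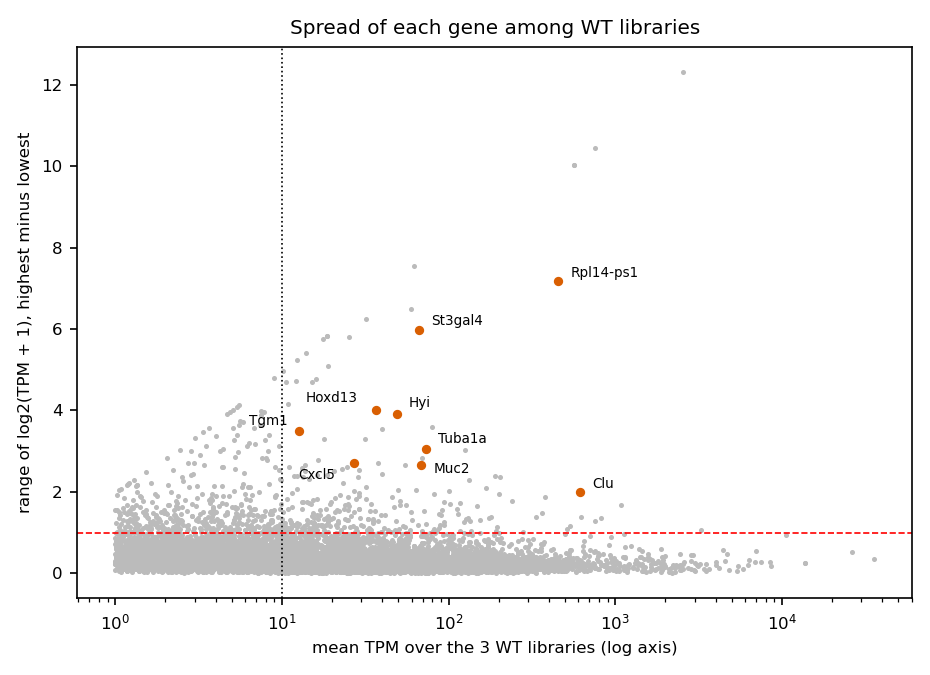
Range of log2(TPM + 1) between the highest and lowest WT library against the mean TPM (log axis), 1 point for each of 12042 gene rows; the dashed line marks a range of 1, the dotted line 10 TPM, and orange points carry gene names. Most genes lie under the dashed line, and St3gal4 (5.98) and Hyi (3.92) stand far above it.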

How the data were processed

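Bulk RNA was measured in 3 wild-type mouse colon spheroid libraries, grouped and numbered by their sample titles. The authors deposited estimated counts per gene as whole numbers, without normalization, and TPM, in which the authors' values account for gene length and add up to 1000000 in every library. Bowtie2, RSEM and mm10 are named in the submitters' processing notes; their settings and versions and the gene annotation are not given in the sources used here. All 10 value columns were mapped to samples.

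A gene was called detected at 1 TPM or more in each of the 3 libraries, and near absent at 3 counts or fewer in each. Lists were summed in TPM (mean ± SD, n = 3). Ranges are of log2(TPM + 1), with a pseudocount of 1, which understates the range of low genes. The biological coefficient of variation came from edgeR 4.0.16 (R 4.3.3) with TMM scaling and an intercept alone, and from DESeq2 1.42.0 as an alternative. On simulated data for 12523 genes with a true value of 20%, 19.91% was recovered without planted genes and 25.73% with 200 planted, all 200 of which were found past the range limit. Other values used pandas 2.3.3. Shared sequence is the percentage of a gene's 31-base sequences in GENCODE M21 transcripts that occur in another gene. Coordinates and promoters are from RefSeq (GRCm38.p6, which is mm10), to which 24028 symbols matched.

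The WT libraries were chosen by their labels. The marker lists and their genes were chosen with earlier results of these data known, and the hypoxia-inducible and small proline-rich lists after the values were seen. Shares of all genes or rows beside the counts of any list are therefore given for scale and lend those counts no support. Named genes were the 5 markers Epcam, Cdx2, Cd44, Ccnd1 and Krt4, the 30 most abundant, the 5 most abundant members of each list and its defining members at 3 counts or fewer, the detected Hox genes and the 12 genes with the widest range at 10 TPM or more. Other genes named were chosen after their values were seen. Some genes that this rule names are not reported here. Alternatives changed the detection minimum, pseudocount, scaling and filter, and left out each library.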

Additional observations from a re-analysis of the deposited data

How the results depend on the processing

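No paired analysis was possible because a single group was described and nothing was compared between groups. The share held by the 100 most abundant rows was 22.8% in CPM and 29.3% without accession-like rows. Rescaling without ribosomal protein genes gave sums of 20176 TPM for pan-epithelial, 14171 for colonocyte, 2752 for goblet and 34.6 for the other cell types' genes. Leaving out each list's most abundant member gave 12668.5, 8839, 1551 and 23.8 TPM for these lists, 128 for enteroendocrine and 2.19 for tuft. At a minimum of 0.5 TPM, 1 tuft gene and 10 of the other cell types' genes were detected in each library. The biological coefficient of variation was 9.26% as the DESeq2 gene-wise median and ranged from 16.03% to 20.5% when 1 library was left out. The number of rows with a range over 2-fold was 688 at a mean of at least 1 TPM, 795 with no minimum, and from 101 to 184 when 1 library was left out. Of 174 further comparisons, for the other lists and classes, 143 stayed within a set limit and 31 moved past it. For sums and shares the limit was the spread between libraries. For counts of detected genes, at a minimum of 0.5 TPM, it was a fixed ratio and not that spread. Leaving out WT replicate 1, 2 or 3 gave 37 of these comparisons each. They say nothing on stability, since leaving 1 library out of a mean of 3 cannot move it by that spread. Of the rest, 19 of 21 moved without the most abundant member. With rescaling without ribosomal protein genes 7 of 21 moved, and at a minimum of 0.5 TPM 5 of 21. The alternative without mitochondrially encoded genes was not run, since 0 rows carry such symbols. With 3 libraries, the spread itself is known only roughly, and low genes are limited by depth.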
